A study of Macaca mulatta with 10 samples.

Results

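The genes described here encode the hepatic receptors, precursors and enzymes of the vasopressin, adrenergic, angiotensin, endothelin and endothelial nitric oxide systems. The set was AVPR1A, ADRA1A, ADRA1B, AGT, AGTR1, EDN1, EDNRA, EDNRB and NOS3. A probe set belonged to it when the platform annotation paired it with exactly 1 symbol and that symbol was one of these 9. This rule gave 13 of the 52865 probe sets of the array, for 6 of the 14133 genes so annotated. ADRA1B, EDNRA and EDNRB were not analysed here, because the annotation paired no probe set with their symbols. Where a gene had several probe sets they are lettered a, b and c in order of falling mean signal.

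Liver of rhesus macaques was profiled on 10 arrays, 5 from brain-dead donors and 5 from living donors that served as controls. Each array was taken as 1 animal. The brain-dead group held 2 females and 3 males, aged 7, 18, 7 and 7 years with 1 age not given, and the control group 3 females and 2 males aged 16, 10, 4, 20 and 10 years. Brain death was induced with an extradural balloon. Its length is 6 h in the sample labels but 5 h in the design text of the series. Blood pressure in that period was held at a mean of 50 to 70 mmHg with Ringer's lactate. From about 30 min after induction vasopressin (0.1 to 6 units per h), dopamine (0.5 to 10 µg per kg per min) or both were added. The labels do not say which animal received which drug, so vasopressin-treated and dopamine-treated livers cannot be told apart. The controls were anaesthetised and ventilated for 1 h, so ventilation time, drugs and brain death differ together between the groups. The labels name no litter, day or batch and do not state in words that each array is a separate animal. They give each a sex and, with 1 exception, an age, but brain-dead arrays 4 and 5 share both (male, 7 years). Separate animals were therefore assumed, and the p-values measure the spread between these samples.

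Vasopressin acts on the hepatocyte through the V1a receptor, noradrenaline and adrenaline through alpha-1 adrenoceptors, and angiotensin II through the type 1 receptor. All of these couple to Gq, which raises intracellular calcium and in liver drives glycogen breakdown. Angiotensinogen, made mainly by hepatocytes, is the precursor from which angiotensin II is cleaved. Endothelin-1 constricts sinusoids and portal vessels through its A and B receptors, and nitric oxide from the endothelial synthase relaxes them.

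The comparison of brain-dead with control livers addresses how transcripts of these systems differ after brain death with pressor support. The angiotensin receptor AGTR1 was lower in all 5 brain-dead animals than in any control. Its probe sets were at 0.428 and 0.399 of the control level, and both passed the test. Over all probe sets tested, 3.6% had groups that did not overlap with the brain-dead animals lower, and 6.1% passed in either direction. Both AGTR1 calls ended under 7 of 23 alternatives, among them leaving out single arrays. The other 7 probe sets that could be tested did not pass. AGT, the angiotensin precursor, was lower in every brain-dead animal by a small margin that did not pass the test across all probe sets. AVPR1A and ADRA1A, the receptors of the drugs and hormones concerned, differed more between animals of one group than between the groups. The intervals of EDN1 and NOS3 span 0.

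Of the 13 probe sets, 9 passed the filter on low signal (above the array median on at least 5 of 10 arrays) and were tested with limma, as 26653 of all probe sets were. The lowest that passed was AVPR1A probe set a, above the median on 8 arrays, and the nearest that did not were AVPR1A probe set b and ADRA1A probe set c, on 2 arrays each. Of these 9, 2 were lower at a Benjamini-Hochberg adjusted p under 0.05 and 0 were higher. Over all probe sets tested 3.39% were lower and 2.72% higher, 6.1% in all. The 2 lower probe sets belong to 1 gene, so they are 1 of 6 genes of the set, where 6.77% of all genes measured changed. The median change of all probe sets tested was -0.0027 on the log2 scale.

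**Figure D1:**
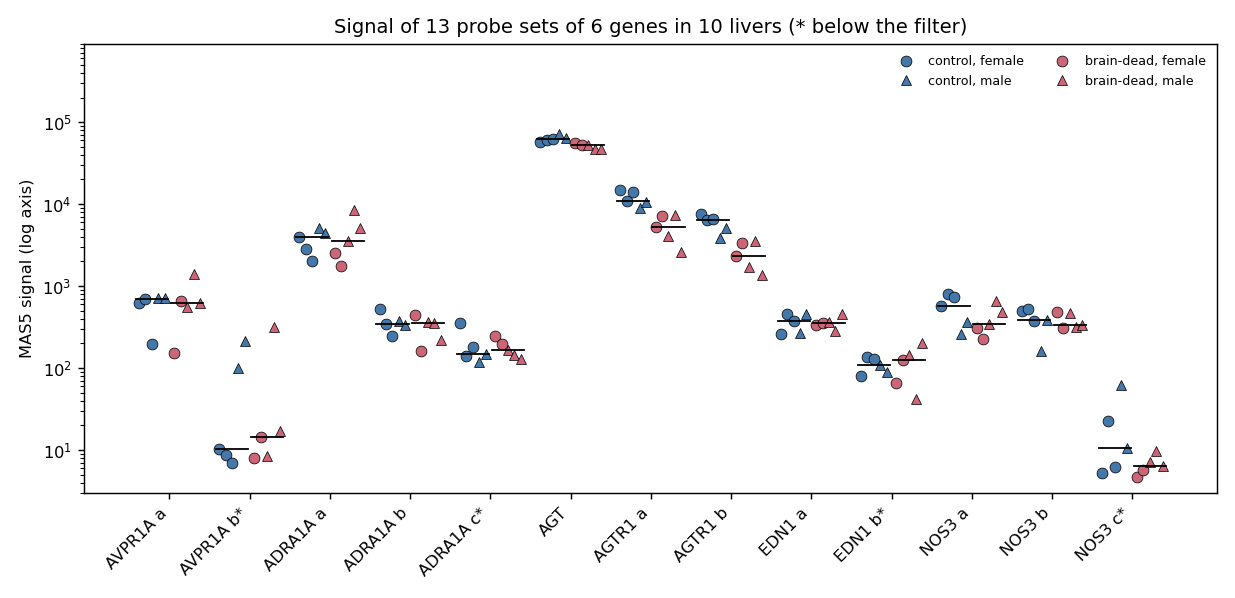
Deposited signal (log axis) of the 13 probe sets in each of the 10 livers, circles for females and triangles for males, blue for control and red for brain-dead animals, with a black line at each group's median and an asterisk at probe sets below the filter. The brain-dead animals lie below all controls for AGT and for both probe sets of AGTR1, while the groups overlap for the other probe sets.

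AGT was measured by 1 probe set (MmuSTS.3785.1.S1_at), whose mean log2 signal lay above that of 99.7% of all probe sets. Its signal in control animals 1 to 5 was 57754, 60272, 61697, 71465 and 63808. In brain-dead animals 1 to 5 it was 55379, 52156, 52693, 47444 and 47601. The groups did not overlap, which over all probe sets tested held for 3.6% with the brain-dead animals lower and for 6.93% in either direction. The spread was small, with means of 62999 ± 5219 in control and 51054 ± 3448 in brain-dead animals (SD, n = 5). The log2 change was -0.30 ± 0.14 (SE, limma, Benjamini-Hochberg adjusted p = 0.215), with a 95% interval from -0.61 to 0.0033. The exact permutation test of this single value gave p = 0.00794 (two-sided, unadjusted), the smallest that 5 against 5 animals allow, which follows from the lack of overlap. The size of the change depended on the scaling, at -0.20 with quantile normalization and -0.23 with each array centred on its median (limma, Benjamini-Hochberg adjusted p = 0.407 and 0.412).

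Among the receptors, AGTR1 carried the difference between the groups. Probe set a (MmugDNA.18704.1.S1_at) had signals of 14868, 10824, 14019, 8846 and 10505 in control animals 1 to 5. In brain-dead animals 1 to 5 these were 5256, 7089, 4127, 7454 and 2637. The highest brain-dead animal, number 4, thus lay below the lowest control, also number 4, and the groups did not overlap. The log2 change was -1.22 ± 0.29 (SE, n = 5 per group, limma, Benjamini-Hochberg adjusted p = 0.0277, 95% interval -1.84 to -0.60), a level 0.428 of that in controls. Probe set b (MmugDNA.4851.1.S1_at) had signals of 7647, 6341, 6643, 3897 and 5133 in control animals 1 to 5 and of 2304, 3370, 1702, 3566 and 1380 in brain-dead animals 1 to 5. It changed by -1.33 ± 0.30 (limma, Benjamini-Hochberg adjusted p = 0.0226, 95% interval -1.96 to -0.69), to 0.399 of the control level. Each probe set gave the smallest possible value in the exact permutation test (p = 0.00794, two-sided, unadjusted), which follows from the lack of overlap. Over all probe sets tested, the groups did not overlap for 6.93% in either direction and for 3.6% with the brain-dead animals lower. Only 3.51% and 2.86% of all probe sets tested had a lower change than AGTR1 probe sets a and b.

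Both AGTR1 probe sets placed the 10 animals in the same order, from control animal 1 at the top to brain-dead animal 5 at the bottom. They measure the same RNA samples and so are not independent evidence of the group difference. Spread relative to the mean was larger in the brain-dead group, 38.0% against 21.5% for probe set a and 39.6% against 24.4% for probe set b (SD over mean, n = 5). Within the controls the 2 males had the lowest signals of probe set b, and for probe set a they had the lowest too. Brain-dead males spanned the whole range of their group, from 2637 to 7454 for probe set a.

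**Figure D2:**
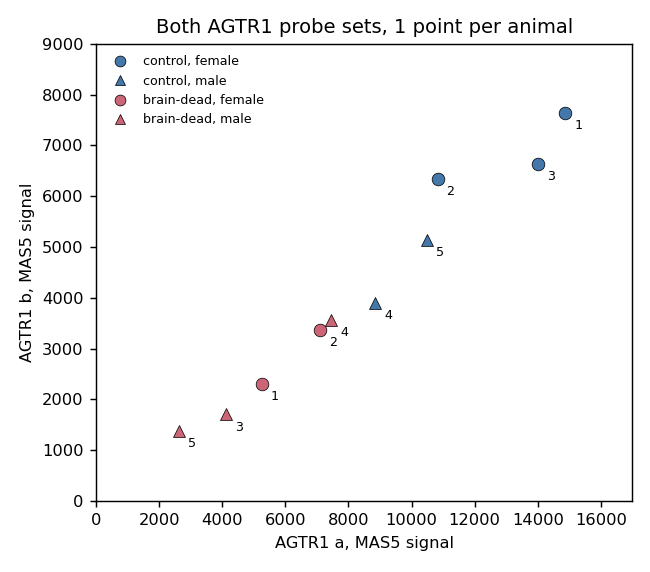
Signal of AGTR1 probe set b against probe set a, both on linear axes, with 1 numbered point per animal, circles for females, triangles for males, blue for control and red for brain-dead. The 5 brain-dead animals lie at 2637 to 7454 on the x axis and 1380 to 3566 on the y axis, below all 5 controls on both.

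The AGTR1 call depended on single arrays. With 1 array left out, the change of probe set a stayed between -1.37 and -0.995 and that of probe set b between -1.48 and -1.14. The adjusted p of probe sets a and b was then 0.0625 and 0.0537 without control animal 1, 0.05996 and 0.0585 without control animal 2, and 0.0692 and 0.0563 without control animal 3 (limma, Benjamini-Hochberg). It was 0.0623 and 0.0539 without brain-dead animal 3, and 0.0554 and 0.0551 without brain-dead animal 5. Both calls also ended without the pair of animals numbered 1, which lie apart from the others on the second principal component (limma, Benjamini-Hochberg adjusted p = 0.0863 and 0.0813). The same held for a model with sex and age, which drops the brain-dead animal with no age (0.0834 and 0.0673). Over all 23 alternatives the adjusted p ranged from 0.0190 to 0.0863 for probe set a and from 0.0147 to 0.0813 for probe set b.

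Of 10 hepatocyte markers 6 were measured, and 0 passed the test (limma, 4 at an unadjusted p under 0.05), with a median change of -0.37. The share of all probe sets at that unadjusted level is not given here. Such counts, here and for the lists below, are therefore not read as a difference. The summed signal of the hepatocyte markers was 382792 to 472591 in controls and 313191 to 365146 in brain-dead animals, without overlap. This sum takes 1 probe set per gene and comes mostly from SERPINA1 and APOA1. Other probe sets of these genes did not all share its direction, since 1 of SERPINA1 rose (1.17 ± 0.32, limma, Benjamini-Hochberg adjusted p = 0.0464) and 1 of F2 had 0.62 ± 0.42. The remaining SERPINA1 probe sets had -0.09, -1.15, -1.14 and -0.82 and the other of TAT had -0.71, none past the threshold. APOA1, a plasma apolipoprotein made by hepatocytes, had a signal of 115860 ± 11562 in controls and 91296 ± 7916 in brain-dead animals (SD, n = 5). ALB, TTR, CPS1 and ASGR1 were not analysed here. In bulk liver, fewer cells of a type and less RNA per cell cannot be told apart, and the part of this shift in the AGT and AGTR1 values was not tested. Stellate cells, which also carry the receptor, had 3 of 10 markers measured, with COL1A1 below the filter. HGF rose by 1 probe set (1.41 ± 0.31, limma, Benjamini-Hochberg adjusted p = 0.0226), but its other did not pass (0.61, adjusted p = 0.278). NGFR (1.15 ± 0.39) and COL3A1 (-0.22 ± 0.31) did not pass. The summed signal of these 3 markers, with 1 probe set per gene, was 1153 to 2161 in controls and 1766 to 4913 in brain-dead animals.

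AVPR1A, the V1a receptor through which vasopressin acts on liver and vessel wall, showed no group difference past its spread. Probe set a (MmugDNA.37433.1.S1_at) had signals of 618, 703, 198, 713 and 713 in control animals 1 to 5. In brain-dead animals 1 to 5 it had 152, 651, 561, 1389 and 625. Brain-dead animal 4 was the highest of all 10 and brain-dead animal 1 the lowest, so the brain-dead group spanned the controls on both sides. The log2 change was 0.027 ± 0.51 (limma, Benjamini-Hochberg adjusted p = 0.983), and its 95% interval, -1.08 to 1.13, leaves room for a doubling or a halving. The direction flipped under 5 of 22 alternatives, among them without control animal 3 (-0.33) and with sex in the model (-0.17). Probe set b (MmugDNA.19739.1.S1_at) lay below the filter, between 6.97 and 17.2 in 7 animals. It reached 99.1 and 215 in control animals 4 and 5 and 316 in brain-dead animal 4, all of them males. Brain-dead animals 3 and 5, also males, had 8.54 and 17.2.

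ADRA1A, the alpha-1A adrenoceptor, was likewise more variable within than between groups. Probe set a (MmugDNA.2056.1.S1_at) had signals of 3930, 2840, 2024, 5086 and 4407 in control animals 1 to 5. Brain-dead animals 1 to 5 had 2542, 1760, 3498, 8368 and 5177, again with animal 4 the highest. The change was 0.084 ± 0.39 (limma, Benjamini-Hochberg adjusted p = 0.924, 95% interval -0.76 to 0.93), and it flipped sign under 5 of 23 alternatives, among them without brain-dead animal 4 (-0.21). Probe set b (MmugDNA.31813.1.S1_at) ran from 243 to 522 in controls, median 346, and from 161 to 446 in brain-dead animals, median 351. It changed by -0.29 ± 0.32 (limma, Benjamini-Hochberg adjusted p = 0.616, 95% interval -0.97 to 0.38). Probe set c (MmugDNA.21976.1.S1_at) lay below the filter, with 120 to 357 in controls and 130 to 246 in brain-dead animals. The probe sets did not rank the animals alike, since brain-dead animal 4, highest by probe set a, had 351 by probe set b and 143 by probe set c.

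**Figure D3:**
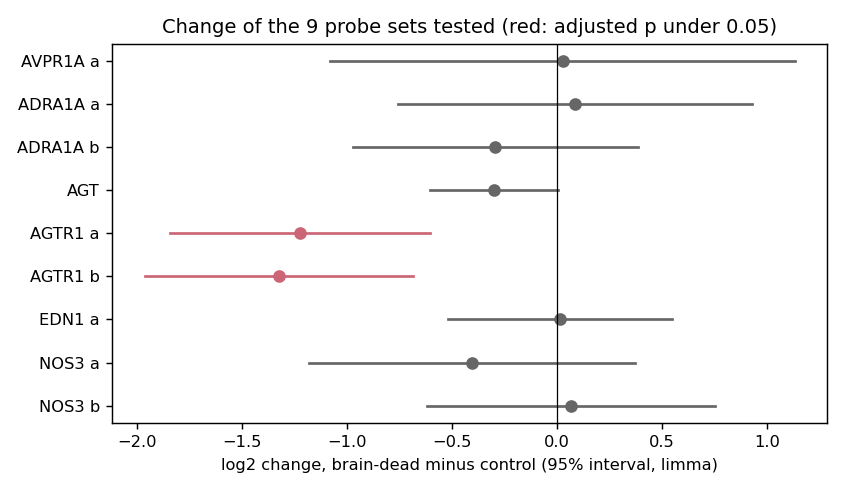
Log2 change between brain-dead and control livers for the 9 probe sets tested, with 95% intervals from limma, red where the Benjamini-Hochberg adjusted p is under 0.05. Both probe sets of AGTR1 lie wholly below 0, at -1.22 and -1.33, while the interval of AGT ends at 0.0033 and those of the other 6 span 0.

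EDN1 encodes preproendothelin-1, the precursor of the constrictor peptide. Probe set a (MmugDNA.37775.1.S1_at) had signals of 260, 454, 371, 264 and 453 in control animals 1 to 5 and 335, 357, 361, 280 and 455 in brain-dead animals 1 to 5. These ranges nearly coincide, with means of 360 ± 96.0 and 358 ± 63.2 (SD, n = 5). The change was 0.014 ± 0.25 (limma, Benjamini-Hochberg adjusted p = 0.982), and the 95% interval of -0.52 to 0.55 covers changes of less than 1.5-fold in either direction. Its sign flipped under 6 of 22 alternatives. Probe set b (MmugDNA.24783.1.S1_at) lay below the filter at 80.2 to 135 in controls and 41.7 to 203 in brain-dead animals. Here the brain-dead group again lay on both sides of the controls, with 2 animals below and 2 above their range.

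NOS3 encodes the nitric oxide synthase of endothelium. Probe set a (MmugDNA.18689.1.S1_at) had signals of 572, 804, 728, 257 and 362 in control animals 1 to 5 and of 310, 226, 347, 658 and 479 in brain-dead animals 1 to 5. The groups overlapped widely, and the change was -0.40 ± 0.36 (limma, Benjamini-Hochberg adjusted p = 0.536, 95% interval -1.18 to 0.37). Probe set b (MmugDNA.19138.1.S1_at) ran from 159 to 518 in controls, median 390, and from 310 to 477 in brain-dead animals, median 334. It changed by 0.068 ± 0.32 (limma, Benjamini-Hochberg adjusted p = 0.924), with a sign that flipped under 5 of 22 alternatives. Probe set c (MmugDNA.2318.1.S1_at) was above the median on 0 arrays, with at most 62.4 in any animal. Of 13 endothelial markers 11 were measured, with KDR below the filter, and 0 passed (limma, 3 at an unadjusted p under 0.05). Their median change was -0.35 and their summed signal 30932 to 51712 in controls against 26357 to 38483 in brain-dead animals. The part of endothelial content in the NOS3 and EDN1 values was not tested.

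Sex divided the animals for ADRA1A and NOS3 in ways that did not pass across the array. Across all probe sets, 0 of 26653 (0%) differed between males and females with group in the model, and 0 (0%) had an interaction of group with sex (limma, Benjamini-Hochberg). At an unadjusted p under 0.05 these counts were 3223 and 1015. By ADRA1A probe set a, control males (4407 and 5086) lay above control females (2024 to 3930). Brain-dead males (3498 to 8368) likewise lay above brain-dead females (1760 and 2542). The difference, male minus female, was a log2 value of 1.04 ± 0.29 (limma, Benjamini-Hochberg adjusted p = 0.292, unadjusted 0.00340), while probe set b gave 0.099 ± 0.33. For AVPR1A probe set a it was 1.01 ± 0.46 (limma, Benjamini-Hochberg adjusted p = 0.412). With sex in the model the group changes of ADRA1A and AVPR1A probe sets a were -0.12 and -0.17. These sex comparisons were chosen after the values were seen.

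By NOS3 probe set a, with only 2 or 3 animals per sex and group, the group difference had opposite signs in females and males. Females had 572 to 804 as controls and 226 and 310 when brain-dead. Males had 257 and 362 as controls and 347 to 658 when brain-dead. The male change exceeded the female change by 2.04 ± 0.51 on the log2 scale, which did not pass over all probe sets (limma, Benjamini-Hochberg adjusted p = 0.9998, unadjusted 0.00185). Probe set b gave 0.82 ± 0.59 for the same difference. For AGTR1 the interaction was -0.05 ± 0.57 for probe set a and 0.16 ± 0.56 for probe set b, errors too wide to show whether the sexes differ.

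**Figure D4:**
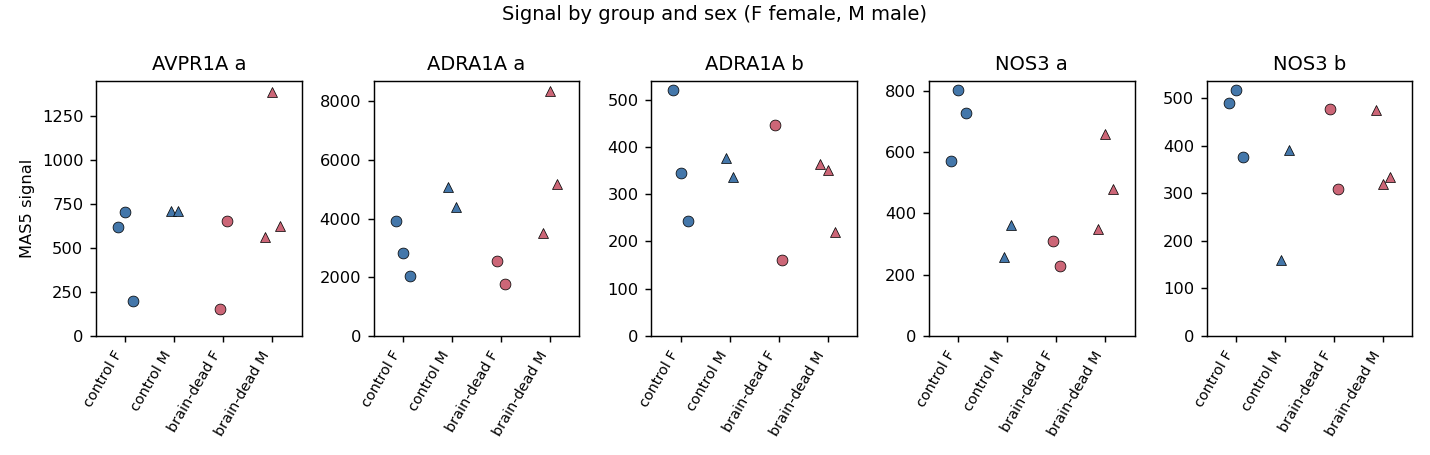
Signal (linear axes from 0) of AVPR1A probe set a, ADRA1A probe sets a and b and NOS3 probe sets a and b, 1 point per animal, by group and sex. Males lie above females within each group for ADRA1A probe set a but not probe set b, and NOS3 probe set a is lower in brain-dead than control females but not in males.

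Of 126 genes on 7 lists of their ligands, peptidases, receptors and signalling partners, 70 were measured, 2 fell, 0 rose and 68 did not pass the test. Over all 9835 genes tested 3.87% fell and 2.9% rose, and the share that fell on these lists, 2.86%, is near that background. The 2 that fell, ANPEP and NOSTRIN, act on angiotensin peptides and on the endothelial nitric oxide synthase. The median change of the 70 was -0.073, against -0.0069 over all genes tested. A further 6 genes, 5 of them with lower values, had an adjusted p between 0.05 and 0.06 (limma, Benjamini-Hochberg). The share of all genes in that range is not given here, so no trend is read from them.

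Among 6 measured ligand and peptidase genes, ANPEP, the aminopeptidase N that trims angiotensin III, was the 1 that fell. Its signal was 45043, 21856, 16757, 13082 and 12578 in control animals 1 to 5 and 11231, 7502, 6194, 5922 and 7102 in brain-dead animals 1 to 5. The groups did not overlap, although control animal 1 stood far above the other controls. The change was -1.39 ± 0.33 (limma, Benjamini-Hochberg adjusted p = 0.0280) and -1.09 without control animal 1, while -0.29 and -0.51 were the values of its other probe sets, neither past the threshold. Leaving out control animal 2 or 3 ended the call (limma, Benjamini-Hochberg adjusted p = 0.0700 and 0.0534). So did leaving out brain-dead animal 3, 4 or 5 (0.0611, 0.0657 and 0.0648, limma, Benjamini-Hochberg) and modelling sex and age (0.0605). The change was -1.22 with sex and age and between -1.44 and -1.31 without those single arrays. The adjusted p of all alternatives lay between 0.00585 and 0.0700. MME, neprilysin, which degrades angiotensins and endothelins, had a change of -1.39 ± 0.39 that missed the threshold narrowly (limma, Benjamini-Hochberg adjusted p = 0.0505). Its other probe sets disagreed in direction, at -0.40 and 1.05, and neither passed. ENPEP, which turns angiotensin II into angiotensin III, had 0.28 ± 0.20, and its other probe sets had 0.26 and -0.42. The endothelin-converting enzymes ECE1 and ECE2 had 0.27 ± 0.21 and 1.17 ± 0.41 (limma, Benjamini-Hochberg adjusted p = 0.470 and 0.108). The other probe set of ECE2 had only 0.25 (limma, Benjamini-Hochberg adjusted p = 0.627). AVP itself lay below the filter. MME, ENPEP, ECE1 and ECE2 were singled out after their values were seen.

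In the nitric oxide pathway 1 of 15 measured genes fell and 0 rose. NOSTRIN, which draws the endothelial synthase from the membrane into vesicles, had signals of 2483, 3116, 3160, 2777 and 3563 in control animals 1 to 5. In brain-dead animals 1 to 5 it had 1257, 1834, 2181, 1913 and 1312, all below every control. The change was -0.85 ± 0.22 (limma, Benjamini-Hochberg adjusted p = 0.0374), and its other probe sets, at -0.36 and -0.21, stayed outside the threshold. The call ended under 10 of 23 alternatives, among them centring on the median (-0.78, limma, Benjamini-Hochberg adjusted p = 0.0678, range 0.0236 to 0.0930). Among single arrays, dropping control animal 2, 3 or 5 gave 0.0853, 0.0861 and 0.0753 (limma, Benjamini-Hochberg adjusted p). Dropping brain-dead animal 1, 4 or 5 gave 0.0727, 0.0611 and 0.0930. The endothelial markers given beside NOS3 bear on NOSTRIN too, and their part was not tested.

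Of 4 measured related receptors and of 6 catecholamine genes, 0 passed (limma, 0 at an unadjusted p under 0.05 in either list). AGTRAP, which binds the angiotensin type 1 receptor and promotes its internalisation, had a change of 0.41 ± 0.26. The beta-3 adrenoceptor ADRB3 had -0.0043 ± 0.27, with a sign that turned under both other scalings (0.038 with quantile normalization, 0.064 with median centring). MAOA, which oxidises catecholamines, had -0.24 ± 0.25 and RNLS, renalase, -0.39 ± 0.24. The vasopressin receptors AVPR1B and AVPR2, the oxytocin receptor OXTR, ADRA2A, ADRA2B, AGTR2 and MAS1 lay below the filter.

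Downstream of the Gq-coupled receptors, 0 of 18 genes of calcium signalling passed (limma, 1 at an unadjusted p under 0.05, STIM1). The list median was -0.13. PYGL, the glycogen phosphorylase on which the calcium signal acts, had 0.030 ± 0.44 by the probe set of highest mean. Its 5 other probe sets were at -0.81, -0.07, -0.90, -0.88 and -0.80, of which the first had the lowest adjusted p (0.0621, limma, Benjamini-Hochberg) and groups that did not overlap. None of the 6 PYGL probe sets passed, and they differ too widely to give the gene 1 value. ATP2A2, the calcium pump of the endoplasmic reticulum, had 0.19 ± 0.29. Of 10 genes of receptor desensitisation 0 passed (limma, 3 at an unadjusted p under 0.05), with a median of 0.25. RGS2, which shortens Gq signalling, had signals of 5893 ± 1882 in controls and 10880 ± 4335 in brain-dead animals (SD, n = 5) and a change of 0.85 ± 0.31 (limma, Benjamini-Hochberg adjusted p = 0.118). RGS16, of the same family, had 1.14 ± 0.37 (limma, Benjamini-Hochberg adjusted p = 0.0846). The lowest adjusted p of the list belonged to GRK4, a receptor kinase, which lay in the opposite direction at -1.01 ± 0.29 with groups that did not overlap (0.0531, limma, Benjamini-Hochberg). GRK4 was chosen with its values known.

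Of 11 other vasoactive genes 0 passed (limma, 4 at an unadjusted p under 0.05). Many probe sets reached that level, since NPR1, with an unadjusted p of 0.0469, had an adjusted p of 0.205 (limma, Benjamini-Hochberg). KNG1, kininogen, the precursor of bradykinin, had signals of 48406, 55275, 47198, 46580 and 45220 in control animals 1 to 5. Brain-dead animals 1 to 5 had 38876, 32989, 33972, 31909 and 29297, without overlap. The change of -0.54 ± 0.15 missed the threshold (adjusted p = 0.0520, limma, Benjamini-Hochberg) but passed under 5 of 23 alternatives (range 0.0296 to 0.200). Its other probe sets had larger values in the same direction, -1.04 and -1.34, with adjusted p = 0.0880 and 0.0909 (limma, Benjamini-Hochberg). Like AGT it is a hepatocyte product, and the part of the lower summed hepatocyte markers given above in the KNG1 values was not tested. CALCRL, a receptor subunit for adrenomedullin and calcitonin gene-related peptide, had -0.14 ± 0.25. The adenosine receptor ADORA2B, singled out after its values were seen, had 1.43 ± 0.40 (limma, Benjamini-Hochberg adjusted p = 0.0501).

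**Figure D5:**
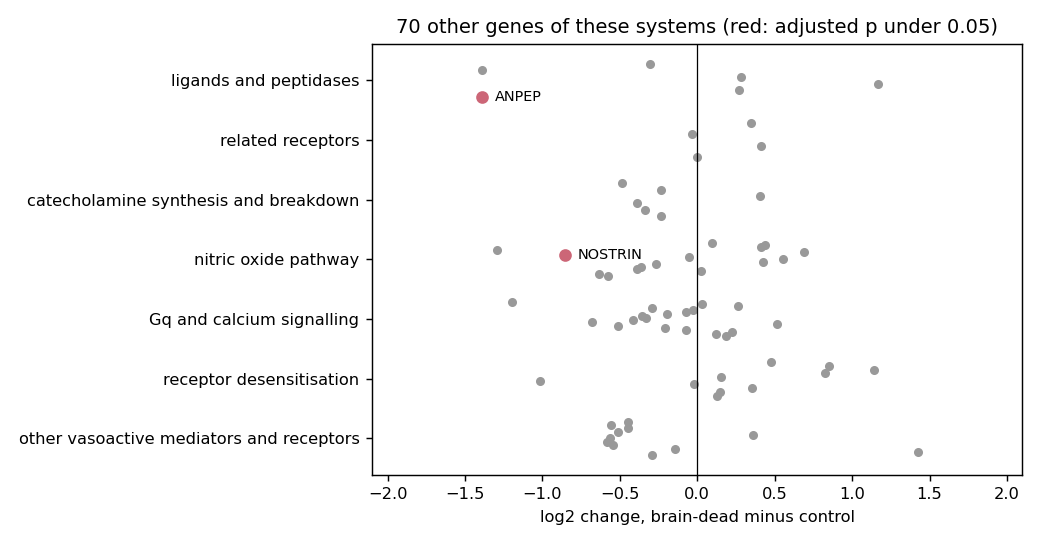
Log2 change, brain-dead minus control, of the 70 other genes measured on the 7 lists, 1 point per gene, red and named where the adjusted p is under 0.05. ANPEP at -1.39 and NOSTRIN at -0.85 are the red points, and the remaining 68 genes are grey.

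The remaining marker lists gave few calls. Of 5 vascular smooth muscle, 7 macrophage, 2 cholangiocyte, 3 lymphocyte and 3 erythroid and platelet markers measured, 0 passed in each list. At an unadjusted p under 0.05 these were 2, 0, 0, 0 and 0 (limma). These counts take 1 probe set per gene. By its other probe set the macrophage marker C1QA fell (-1.31, limma, Benjamini-Hochberg adjusted p = 0.0444), while the one counted had -0.33. The other probe set of CD5L, also a macrophage marker, had -0.96 (limma, Benjamini-Hochberg adjusted p = 0.0667). Of 3 neutrophil markers S100A8 rose (3.85 ± 0.74), while CSF3R (0.76 ± 0.34) and ELANE (-0.38 ± 0.40) did not pass. MPO, S100A12 and MMP8 lay below the filter. No member's values were adjusted for these markers.

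The genes whose profile over the 10 arrays was most like that of each member were found by Pearson's r on the log2 scale among 9834 other genes. They are a description, chosen as the highest and given with no p. For AGTR1 probe set a they were SUMF1 (r = 0.968, Spearman's rho = 0.952, n = 10) and LOC710765 (0.968 and 0.952), whose r reflects the group difference as well as the spread within groups. For AGT, whose groups did not overlap either, they were LAMP2 (0.936) and OCIAD2 (0.924), with the same limit. OCIAD2 itself changed by -1.425 (limma, Benjamini-Hochberg adjusted p = 0.0438). For AVPR1A they were ME3 (0.899) and LOC716130 (0.885), and for ADRA1A ARMC12 (0.854) and CFAP52 (0.846). For EDN1 they were CCDC85B (0.877) and LOC711361 (0.830), and for NOS3 TMEM109 (0.920) and ARAF (0.915).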

How the data were processed

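For each array the authors deposited a linear intensity for every probe set, computed with MAS5 per the submitters' processing notes (version not given in the sources used here). Each array had a 2% trimmed mean of 1000, a common scaling of the arrays, and array medians lay between 174.6 and 227.1. Values were put on the log2 scale with no pseudocount or further normalization. The 99 control probe sets were left out, and probe sets exceeding the array median on 5 or more of 10 arrays were tested. Of all probe sets 24969 had 1 symbol in the platform annotation of 2016, 361 several and 27535 none. Of the former, 24629 had a gene ID found in the RefSeq gene table used for current symbols.

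Groups were compared in R 4.3.3 by limma 3.58.1 (lmFit, then eBayes with trend) without covariates. P-values were adjusted after Benjamini and Hochberg across all probe sets tested, with a threshold of 0.05. This limma fit was tested on simulated data with independent noise at each probe set and array. No result of that simulation is used here. Errors are limma standard errors unless called SD. A list gene is represented by its tested probe set of highest mean. Lists describe counts only. Some list members are not reported here. Named genes were all member probe sets, of each list the genes past the threshold or, with none, the 2 of highest mean, and 2 genes most like each member. The members and lists were chosen with earlier results of these data known. Both groups are numbered 1 to 5 in the labels, which do not say that a number marks anything shared, so the numbers were not used as pairs. Alternatives were other normalizations, pseudocounts, filters, covariates, a replicate block, variance settings, array weights and leaving out arrays. The number of arrays limits the precision. Figures were drawn with matplotlib 3.10.9.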

Additional observations from a re-analysis of the deposited data

Results flagged for a closer look

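Samples that stood apart from the other 4 of their group (Dixon's test at 95%, which chance passes in about 1 of 20 groups) were found in 4 of 50 groups examined. AVPR1A probe set a was 198 in control animal 3, where the other controls had 618 to 713. AVPR1A probe set b was 316 in brain-dead animal 4, where the others of its group had 7.91 to 17.2. NOS3 probe set b was 159 in control animal 4, where the other controls had 375 to 518. CALCRL was 10550 in control animal 5, where the other controls had 17260 to 19790.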

How the results depend on the processing

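The count of member probe sets changed was 2, and 0 when sex and age were modelled and without both animals numbered 1. With 1 array left out it ranged from 0 to 2. The count of list genes changed was 2, and 4 with quantile normalization, 1 with median centring, 5 with a pseudocount of 16 or 64, and 5 with a filter at the 75th percentile. It was 1 when sex and age were modelled, 4 with robust eBayes and 6 with array weights. With 1 array left out it ranged from 0 to 4. The count over all probe sets was 1627, and 1056 with no filter, 1035 with sex and age, and 674 without both animals numbered 1. It ranged from 660 to 2289 with 1 array left out. The count of interactions with sex among member probe sets was 0 under every alternative run, which left out those with covariates or a block. With the replicate number as a block 3013 probe sets and 11 list genes changed, and both AGTR1 probe sets passed (limma, Benjamini-Hochberg adjusted p = 0.0253 and 0.0228). RGS16 and RGS2 passed with that block and under no other alternative run (0.0143 and 0.0366, limma, Benjamini-Hochberg). Deviations of same-numbered animals correlated at 0.380, 0.0643, 0.128, 0.0889 and 0.128, all above 0 but not all above 0.1. Of brain-dead animals 2 of 5, and of controls 1 of 5, correlated best with their own number.

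Changes of sign arose among probe sets that never passed. With sex in the model the values were -0.12 for ADRA1A probe set a, -0.17 for AVPR1A probe set a, 0.023 for ADRB3 and -0.049 for PYGL. With sex and age they were -0.064 for NOS3 probe set b, -0.024 for ADRA1A probe set a and -0.059 for EDN1 probe set a. With array weights they were -0.0043 for NOS3 probe set b, -0.12 for EDN1 probe set a, 0.061 for ADRB3 and -0.011 for PYGL. Without both animals numbered 1 they were -0.074 for EDN1 probe set a, 0.063 for ADRB3 and -0.067 for PYGL. For ADRB3 they were 0.038 with quantile normalization and 0.064 with median centring. With 1 array left out the ranges were -0.22 to 0.20 for NOS3 probe set b, -0.21 to 0.35 for ADRA1A probe set a, -0.33 to 0.49 for AVPR1A probe set a, -0.093 to 0.11 for EDN1 probe set a, -0.11 to 0.15 for ADRB3 and -0.31 to 0.25 for PYGL. The cause of these shifts was not tested. Low signal limits the 4 member probe sets below the filter.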
